A study of Mus musculus with 19 samples.

Results

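Vessel-rich and vessel-poor tumours are the upper and lower groups of 10 mouse liver tumours chosen by the measured RNA of 4 endothelial genes, Pecam1, Cdh5, Kdr and Tek, which mark the cells that line blood vessels. For each tumour the mean of log2(CPM + 1) over these genes was taken, where CPM is counts of a gene per 1000000 counts of the library, and the 5 highest tumours (vessel-rich) were compared with the 5 lowest (vessel-poor). The series holds 19 samples, 13 of them tumours, and the 10 tumours numbered 04 to 13 are those whose columns could be tied to a label. All 10 arose in male mice of mixed background that were heterozygous for Ctnnb1tm1Mmt, an allele that stabilises β-catenin after recombination, and homozygous for Gt(ROSA)26Sortm1(MYC)Djmy, a human MYC transgene. Both alleles were recombined by AAV8.TBG.PI.Cre.rBG at 640000000 genome copies per mouse, given between 8 and 12 weeks of age per the study's methods; the TBG promoter restricts Cre to hepatocytes, so endothelial, stromal and immune cells of these tumours belong to the host. Pieces of end-stage tumour were snap-frozen whole and polyadenylated RNA was sequenced. The groups were made from the tumours' own RNA and are not treatment groups, so a test between them asks which other genes varied together with the 4 ranking genes. In bulk RNA, fewer cells of a type and less RNA per cell cannot be told apart.

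Liver sinusoids are lined by a specialised endothelium that is fenestrated, lacks a continuous basement membrane, and clears macromolecules from the blood through receptors such as stabilins and Lyve1. Hepatocellular carcinomas draw on arterial blood and often replace sinusoids with vessels that resemble capillaries, ensheathed by pericytes and set on laminin and type IV collagen. New vessels are led by tip cells, which express Angpt2, Esm1, Apln and Dll4, and which respond to VEGF ligands through Kdr. Tek is the receptor for angiopoietins, Pecam1 and Cdh5 hold endothelial junctions together, and hypoxic cells raise VEGF and other products through HIF.

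Promoters are shown for the ranking genes that the RefSeq table held and for 3 genes of the tip cell and hypoxia lists described below, so that their letters can be read beside their values. Each window of 300 bases is the one that table gives on GRCm38.p6 for a start of the gene, which need not be its outermost: that of Kdr lies inside the gene's span, and those of Tek and P4ha1 cross its outer end. Each sequence is printed on the gene's own strand, and carries in capitals any match to 3 short motifs, on either strand. ETS factors, which are central to endothelial identity, bind a core searched here as AGGAAG. For GATA factors, some of which are active in endothelium, the letters were AGATAA. For HIF, the hypoxia factor, the letters were ACGTG. The last search was added after the values had been seen. Kdr (chr5:75978406-75978705, minus strand), the main VEGF receptor, held none of the 3.
Kdr: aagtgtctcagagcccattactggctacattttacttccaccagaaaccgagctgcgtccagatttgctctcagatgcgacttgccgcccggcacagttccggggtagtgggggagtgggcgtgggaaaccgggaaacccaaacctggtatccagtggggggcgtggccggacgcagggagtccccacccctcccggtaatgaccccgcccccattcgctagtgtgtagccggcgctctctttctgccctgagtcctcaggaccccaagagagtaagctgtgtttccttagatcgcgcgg
Tek (chr4:94739039-94739338, plus strand) held 1 AGATAA.
Tek: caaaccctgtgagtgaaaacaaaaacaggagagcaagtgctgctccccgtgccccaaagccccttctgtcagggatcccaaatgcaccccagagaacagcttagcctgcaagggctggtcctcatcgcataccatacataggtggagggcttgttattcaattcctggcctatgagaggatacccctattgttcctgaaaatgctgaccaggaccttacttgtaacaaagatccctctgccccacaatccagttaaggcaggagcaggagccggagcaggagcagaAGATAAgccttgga
Apln (chrX:48034804-48035103, minus strand), a peptide of tip cells, held 1 match to AGGAAG on the opposite strand.
Apln: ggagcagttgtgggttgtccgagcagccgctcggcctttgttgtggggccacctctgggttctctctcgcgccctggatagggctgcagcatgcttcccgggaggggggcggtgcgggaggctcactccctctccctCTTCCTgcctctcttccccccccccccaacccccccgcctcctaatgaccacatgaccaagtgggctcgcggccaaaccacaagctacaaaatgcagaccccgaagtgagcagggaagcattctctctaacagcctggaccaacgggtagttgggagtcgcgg
Slc2a1 (chr4:119108495-119108794, plus strand), the glucose transporter GLUT1, held 1 ACGTG.
Slc2a1: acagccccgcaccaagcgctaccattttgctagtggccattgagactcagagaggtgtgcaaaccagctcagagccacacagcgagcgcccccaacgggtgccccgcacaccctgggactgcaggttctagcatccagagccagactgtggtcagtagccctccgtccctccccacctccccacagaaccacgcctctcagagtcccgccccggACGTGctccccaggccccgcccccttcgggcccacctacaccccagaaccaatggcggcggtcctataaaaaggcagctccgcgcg
P4ha1 (chr10:59323046-59323345, plus strand), a collagen prolyl hydroxylase, held 1 ACGTG on the opposite strand.
P4ha1: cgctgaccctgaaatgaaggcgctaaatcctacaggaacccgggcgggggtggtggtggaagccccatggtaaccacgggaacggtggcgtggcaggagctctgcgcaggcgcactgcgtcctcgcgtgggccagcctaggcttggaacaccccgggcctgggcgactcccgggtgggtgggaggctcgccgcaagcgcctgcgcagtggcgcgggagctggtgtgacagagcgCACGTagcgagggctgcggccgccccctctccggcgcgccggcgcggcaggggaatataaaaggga
The gene bodies of Pecam1 (chr11:106654213-106715281) and Cdh5 (chr8:104101613-104144504) lie on the same build. AGGAAG stood in 12 of 18 promoters of the endothelial list (66.7%) and in 35.4% of all 32851 promoters, and in 4 of 12 promoters of the tip and arterial list (33.3%). ACGTG stood in 12 of 19 promoter entries of the hypoxia list (63.2%) and in 19.6% of all promoters. AGATAA stood in 11.2% of all promoters and in 2 of 18 of the endothelial list (11.1%). These are counts of letters, with no test.

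The 4 ranking genes are described first, without a test, because their values made the groups. Values are listed throughout in the order of the ranking score, which is tumours 07, 09, 04, 05 and 06 for vessel-rich and 08, 10, 13, 12 and 11 for vessel-poor. Pecam1 stood at 65.2, 57.0, 39.5, 49.0 and 25.7 CPM in the vessel-rich tumours and 14.5, 8.75, 6.82, 5.58 and 5.71 CPM in the vessel-poor ones, a mean of 47.3 ± 15.4 against 8.27 ± 3.71 (SD, n = 5 each). Cdh5 stood at 82.3, 85.8, 43.3, 67.8 and 34.7 CPM against 18.0, 10.2, 9.63, 8.19 and 6.08 CPM. Both genes separated the groups without overlap, by 5.56-fold and 5.82-fold. Kdr stood at 56.9, 22.1, 18.3, 11.2 and 14.5 CPM against 12.6, 6.23, 7.84, 6.46 and 4.96 CPM. Tek stood at 7.96, 4.45, 2.59, 1.75 and 2.27 CPM against 2.15, 1.30, 1.35, 1.53 and 1.05 CPM. Kdr and Tek overlapped between the groups, since tumour 05 had less of both than tumour 08. The score fell from 5.36 in tumour 07 to 3.89 in tumour 06, the last tumour inside the vessel-rich group, and from 3.41 in tumour 08, the first outside it, to 2.30 in tumour 11. Leaving any 1 of the 4 genes out of the score, taking their median or using TMM-scaled values gave the same groups.

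**Figure D1:**
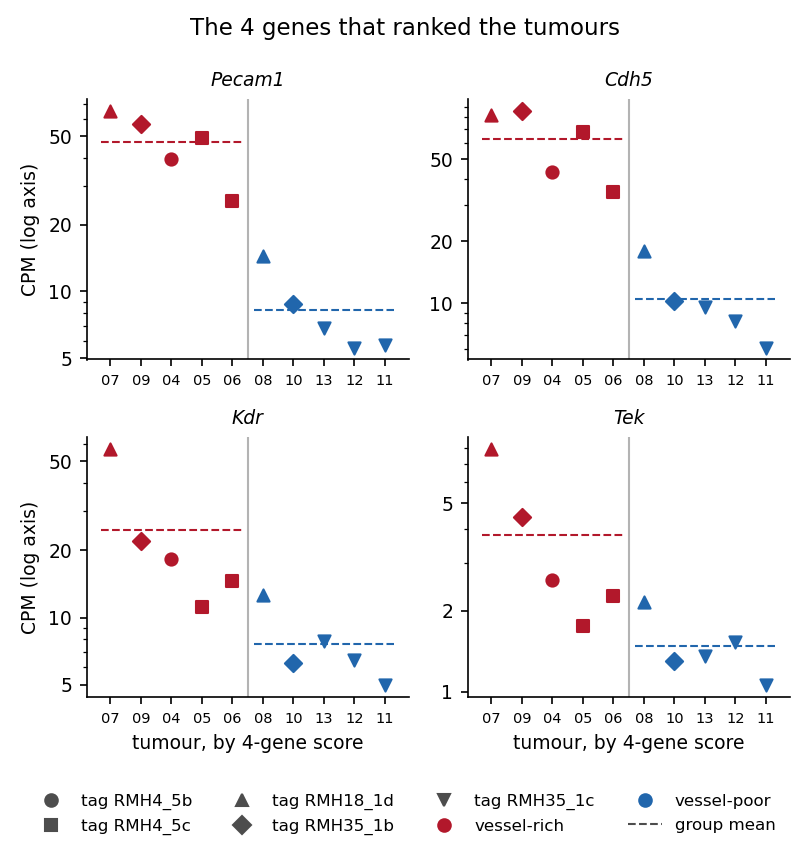
Counts per 1000000 counts (CPM, log axis) of the 4 ranking genes in the 10 tumours, ordered by score, with 1 point per tumour, a marker shape for each column tag and dashed lines at the group means. Pecam1 and Cdh5 separated the groups, from 25.7 CPM against 14.5 CPM at the boundary for Pecam1, whereas Kdr and Tek of tumour 05 lay below those of tumour 08.

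The libraries differed between the groups in ways other than vessels. Total counts ran from 11687034 to 17217656 in the vessel-rich group and from 16111538 to 36964427 in the vessel-poor group, and the groups overlapped only between tumours 06 and 11. The share of alignments that htseq-count set aside as not unique was 50.4% to 57.9% in the vessel-rich libraries and 45.4% to 48.9% in the vessel-poor ones, with no overlap. Rpph1, the RNA of ribonuclease P, which is not polyadenylated, stood at 48.0, 1.70, 4.27, 39.4 and 28.8 CPM in the vessel-rich group and at 1.15, 1.59, 2.03, 0.751 and 2.98 CPM in the vessel-poor group, high in tumours 07, 05 and 06 alone. The mitochondrial ribosomal RNA mt-Rnr2 stood at 1607, 1240.0, 1001, 881 and 694 CPM against 227, 268, 129.8, 207 and 259 CPM, with no overlap. The column names carry tags that the labels do not explain, and tumours with the same tag may come from the same mouse, in which case they are not independent. All 3 tumours of tag family RMH4 (04, 05 and 06) were vessel-rich, the family RMH18 gave 1 tumour to each group (07 and 08, of 1 tag), and the family RMH35 gave tumour 09 to the vessel-rich group and 10 to 13 to the vessel-poor group. For these reasons depth, library composition, mouse and vessel RNA cannot be told apart in full, and the values that bear on each are given below.

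Outside the ranking genes 13678 genes were tested with edgeR's quasi-likelihood test, and at a Benjamini-Hochberg adjusted p under 0.05 a total of 338 were higher in the vessel-rich tumours (2.47% of those tested) and 91 were lower (0.665%). Of the 338, 23 were members of the endothelial lists below. Those genes come from the same cells as the ranking genes, so their calls are not independent of the ranking. Genes that were higher differed more than genes that were lower, with a median log2 fold change of 1.86 against -0.84, and 325 against 27 also differed by more than 1 on the log2 scale. Groups did not overlap in CPM for 400 genes that were higher (2.92%) and 224 that were lower (1.64%), whether or not they passed the test. The median log2 fold change of all tested genes was -0.05. At an unadjusted p under 0.05 there were 2813 genes, 1364 higher and 1449 lower. Of the 338 and 91 called, 74 and 4 had a mean under 1 CPM in the group where they were lower, among them Pgf, Cox4i2, Adm, S100a9 and Spry4 below, and reached the filter through the other group. These 5 were also called with no filter beyond 1 count. The calls depended on single libraries, as 214, 127, 113, 112 and 98 genes were higher without tumours 09, 10, 11, 12 and 13 in turn. With the library total as a covariate edgeR called 0 genes higher and 0 lower, with 813 and 798 at an unadjusted p under 0.05, and with Rpph1 as a covariate 61 were higher and 0 lower, with 929 and 858 unadjusted. With the column tag as a fixed term, which leaves only the pairs 07 and 08, and 09 and 10 as a comparison within tags, 24 were higher and 0 lower, with 917 and 973 unadjusted. Without the RMH4 family 440 were higher and 21 lower, and with every library thinned to the shallowest total 286 were higher and 52 lower, of which 261 and 50 were also called at full depth.

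**Figure D2:**
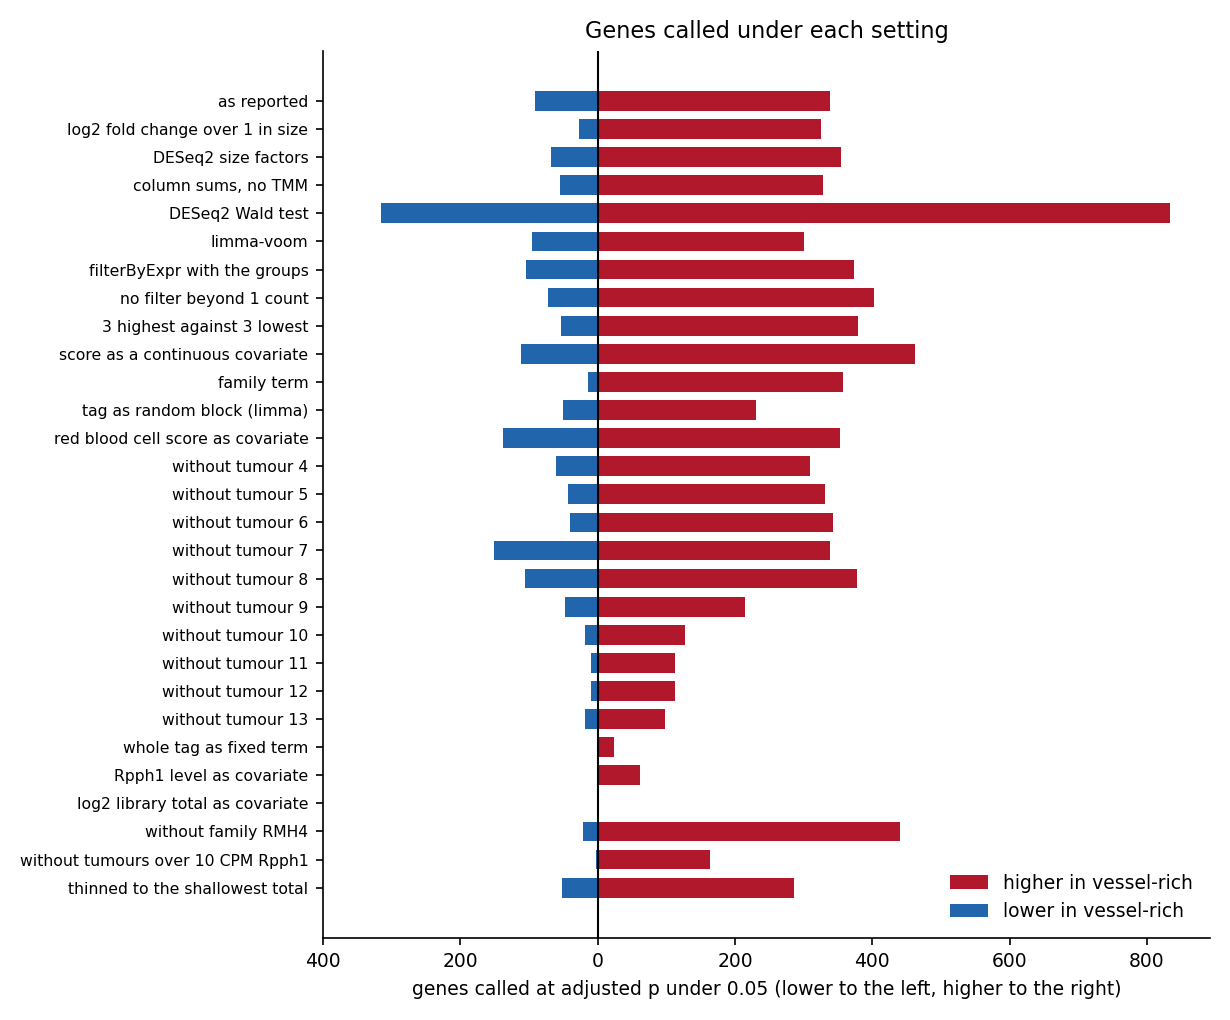
Number of genes called at adjusted p under 0.05 in the comparison as reported and under each alternative, with genes higher in vessel-rich tumours to the right and lower to the left of 0. The comparison as reported called 338 and 91, the DESeq2 Wald test called 834 and 315, and the fit with the library total as a covariate called 0 and 0.

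Most other endothelial genes followed the ranking genes. They come from the same cells, so they are given as a description with no test. Of 28 pan-endothelial genes 27 had a higher estimate in the vessel-rich tumours, 14 separated the groups without overlap (2.92% of all tested genes did in this direction), and the median log2 fold change was 1.61. Robo4, a guidance receptor that steadies vessels, stood at 35.5, 21.8, 17.5, 20.6 and 15.3 CPM against 8.81, 5.03, 4.14, 4.02 and 3.48 CPM, a 4.26-fold difference. Vwf, which carries factor VIII and tethers platelets and is low in normal sinusoids, stood at 15.5, 22.9, 15.8, 13.2 and 13.4 CPM against 7.95, 5.70, 3.44, 3.40 and 4.47 CPM (3.13-fold). Egfl7, a secreted protein of growing endothelium, stood at 41.0, 41.5, 23.7, 30.0 and 26.7 CPM against 17.4, 11.8, 16.3, 9.79 and 10.7 CPM (2.40-fold). The groups did not overlap for any of these 3 genes, nor for Ecscr, at 3.20-fold. The exception in the list was S1pr1, the sphingosine-1-phosphate receptor, at 74.9, 57.4, 46.4, 26.3 and 28.8 CPM against 50.0, 34.8, 71.3, 90.4 and 64.2 CPM, a log2 difference of -0.46. The decoy VEGF receptor Flt1 differed 3.63-fold in the edgeR fit and overlapped between tumours 06 and 08, at 13.8 and 14.1 CPM.

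Markers of the sinusoidal endothelium had the lowest median of the 3 endothelial lists. Of 13 measured genes 11 had a higher estimate in the vessel-rich tumours, none separated the groups (2.92% of all tested genes), and the median log2 fold change was 0.71. The 1 gene of this list among those edgeR called higher was Lyve1 (2.47% of all tested genes were), and no test is drawn from it. That call was lost in 7 of the 10 runs that left out 1 tumour. Lyve1, a hyaluronan receptor, stood at 20.8, 24.0, 9.24, 4.93 and 17.9 CPM against 6.75, 3.53, 4.44, 2.38 and 3.10 CPM. Stab2, the stabilin that clears hyaluronan, stood at 68.3, 35.2, 27.5, 30.9 and 34.9 CPM against 29.6, 13.9, 13.0, 11.4 and 17.0 CPM. Tumour 05, which was vessel-rich, had less Lyve1 than the vessel-poor tumour 08. Clec4g, a lectin of sinusoidal cells, stood at 7.53, 6.29, 3.29, 0.312 and 7.38 CPM against 5.60, 2.27, 3.22, 4.08 and 1.61 CPM, with tumour 05 at 0.312 CPM, close to the 0.187 CPM that 3 counts give at its depth. The sinusoidal factors Bmp2 and Gata4 differed by 0.93 and 0.16 on the log2 scale. Rspo3, which amplifies Wnt signals to hepatocytes, stood at 11.9, 6.99, 1.33, 0.499 and 4.41 CPM against 4.55, 20.0, 1.98, 0.816 and 2.98 CPM and was highest in the vessel-poor tumour 10. Wnt2 and Wnt9b were too low to test, at no more than 1.77 CPM in any tumour. Taking the mean of log2(CPM + 1) over the list, the vessel-rich tumours stood at 3.75, 3.34, 2.76, 2.06 and 3.14 and the vessel-poor ones at 3.08, 2.51, 2.52, 2.39 and 2.42, so tumour 05 was the lowest of all 10 and tumour 08 lay above tumour 04.

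Tip and arterial endothelial genes had the highest median of the 3 endothelial lists. All 12 measured genes had a higher estimate in the vessel-rich tumours, 7 separated the groups (2.92% of all tested genes), and the median log2 fold change was 2.22. Angpt2, the angiopoietin that loosens vessels (chr8:18690263-18741562), stood at 12.6, 15.9, 20.9, 31.1 and 13.2 CPM against 4.88, 1.59, 1.38, 1.14 and 0.559 CPM, a 9.61-fold difference. Esm1, a proteoglycan secreted by tip cells (chr13:113209659-113218104), stood at 39.7, 16.6, 27.9, 29.7 and 16.3 CPM against 7.47, 4.06, 2.06, 1.80 and 1.55 CPM (7.62-fold). Apln, whose promoter is printed above, stood at 14.0, 14.1, 40.8, 43.2 and 17.1 CPM against 7.76, 3.48, 0.649, 0.522 and 0.683 CPM (9.84-fold). Angpt2 and Apln were highest in tumours 04 and 05, which ranked in the middle of the score. Angpt2 was lowest in tumours 11 and 12, and Apln in tumours 12 and 13. The chemokine receptor Cxcr4 and the potassium channel subunit Kcne3 differed 6.93-fold and 6.78-fold, and the Notch ligand Dll4 and its arterial target Hey1 5.88-fold and 3.17-fold. The mean of the list was 3.25, 3.22, 2.93, 3.06 and 2.55 in the vessel-rich tumours and 2.09, 1.62, 1.27, 1.22 and 1.44 in the vessel-poor ones. Tumour 05 thus combined the lowest sinusoidal mean of the 10 tumours with a tip and arterial mean above that of every vessel-poor tumour.

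**Figure D3:**
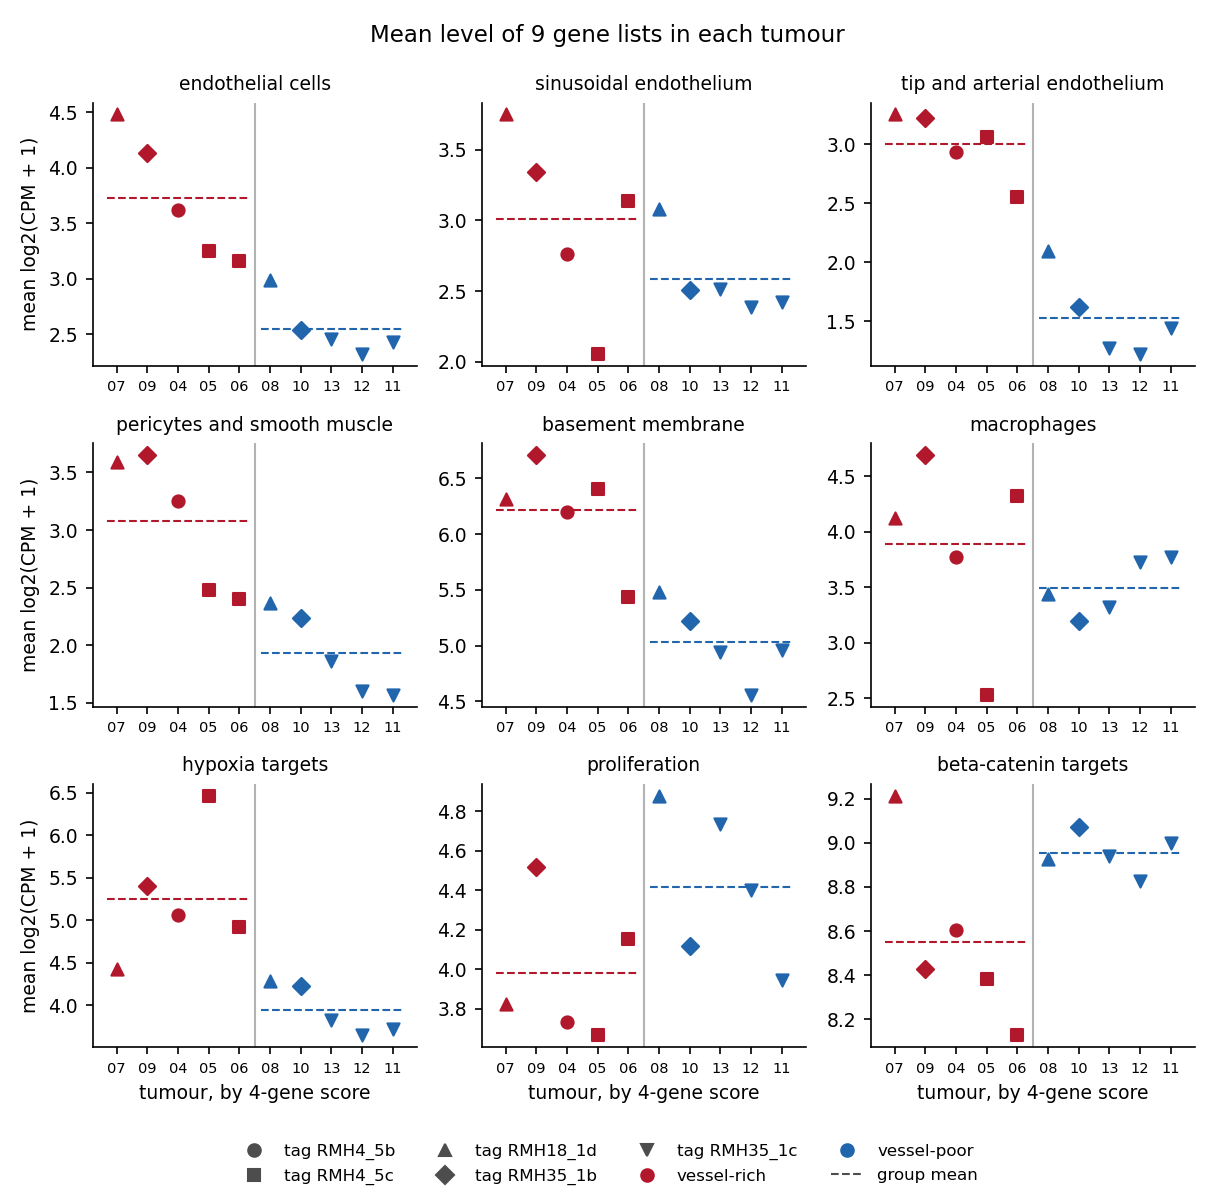
Mean of log2(CPM + 1) over the genes of 9 lists in each tumour, ordered by the 4-gene score, with a marker shape for each column tag and dashed lines at the group means. The endothelial, tip and arterial, pericyte and hypoxia means did not overlap between the groups, whereas the sinusoidal mean ran from 2.06 in tumour 05 to 3.75 in tumour 07, both vessel-rich.

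Among ligands and receptors of vessel growth 4 of 14 tested genes were called higher in the vessel-rich tumours, beside 2.47% of all tested genes, and none was lower, with a median log2 fold change of 1.00. Pgf, the placental growth factor that binds Flt1 (chr12:85166637-85177785), stood at 2.65, 24.1, 9.94, 43.7 and 7.67 CPM against 1.15, 0.435, 0.271, 0.0653 and 0.248 CPM. Its groups did not overlap, and the difference was 5.33 ± 0.85 (SE) on the log2 scale, or 40.2-fold with an approximate 95% interval of 12.7 to 128 (edgeR adjusted p = 0.011). Tumour 12 lay under the 0.0979 CPM that 3 counts give at its depth, so the size of the Pgf difference is uncertain. Vegfa, the principal ligand of Kdr, stood at 108, 148, 109, 514 and 164 CPM against 78.7, 110.5, 81.2, 86.3 and 114 CPM. Vegfa was high in tumour 05, the groups overlapped, and the difference of 1.13 ± 0.42 did not pass (edgeR adjusted p = 0.16). Vegfb and Vegfc differed by 0.08 and 0.32 on the log2 scale (edgeR adjusted p = 0.86 and 0.45), which does not show that they were alike. Notch4, an endothelial Notch receptor, and Pdgfb, by which endothelium recruits pericytes, differed 4.31-fold and 3.37-fold and, as endothelial genes, are given with no test, although both are among the 4. Pdgfrb, the receptor of Pdgfb on pericytes, differed 3.18-fold (edgeR adjusted p = 0.019). It stood at 50.0, 50.5, 27.0, 21.1 and 18.4 CPM against 15.1, 8.79, 10.5, 9.44 and 6.70 CPM, with no overlap. The call of Pgf held whichever tumour was left out, while that of Pdgfrb was lost without any 1 of tumours 10, 11, 12 and 13. Angpt1 and Fgf2 were too low to test.

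Pericyte and smooth muscle genes were called higher in 4 of 12 tested cases, beside 2.47% of all tested genes, and lower in none, with a median log2 fold change of 1.62 and every estimate above 0. Rgs5, a regulator of G-protein signalling in pericytes, stood at 68.5, 70.4, 59.5, 16.4 and 25.4 CPM against 11.5, 10.4, 6.47, 6.79 and 7.76 CPM, 5.38-fold higher (edgeR adjusted p = 0.011). Mcam, an adhesion molecule shared by pericytes and endothelium, stood at 41.2, 40.0, 22.7, 22.6 and 14.1 CPM against 8.76, 4.16, 4.27, 2.64 and 2.36 CPM, 6.11-fold higher. It is likewise given with no test, although it is among the 4. Neither gene overlapped between the groups, and tumours 05 and 06 had the least Rgs5 of the vessel-rich group. Abcc9, a subunit of pericyte potassium channels, and Cox4i2, a cytochrome oxidase subunit of mural cells, were 4.25-fold and 4.75-fold higher (edgeR adjusted p = 0.021 and 0.047). The call of Abcc9 was lost without any 1 of tumours 11 to 13. Cox4i2, at 1.46, 2.83, 1.26, 1.75 and 1.16 CPM against 0.958, 0.0966, 0.243, 0.163 and 0.248 CPM, was lost without any 1 of tumours 10 to 13, was too low to test without any 1 of tumours 04 to 07 and 09, and was called without tumour 08. Acta2, the smooth muscle actin, stood at 36.1, 43.7, 20.4, 5.37 and 7.32 CPM against 23.2, 14.7, 10.5, 5.71 and 4.78 CPM and did not pass (log2 difference 0.86 ± 0.58, edgeR adjusted p = 0.43).

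Stellate cell and fibroblast genes had estimates above 0 in 15 of 15 cases, of which 3 were called higher (2.47% of all tested genes), with a median log2 fold change of 1.34. Colec11, a collectin of stellate cells, stood at 45.2, 35.3, 16.0, 11.2 and 36.6 CPM against 9.87, 6.67, 7.47, 8.03 and 6.02 CPM, 3.69-fold higher (edgeR adjusted p = 0.019). Col14a1 of fibril-associated collagen and Postn, a matrix protein of activated fibroblasts, were 2.48-fold and 4.37-fold higher (edgeR adjusted p = 0.037 and 0.038). All 3 calls were lost without any 1 of tumours 10 to 13, that of Col14a1 also without tumour 07 or 09, and that of Postn also without tumour 04, 07 or 09. Interstitial collagens and their enzymes were called higher in 5 of 16 cases (2.47% of all tested genes) and lower in none, with a median of 1.50. The type VI collagen chains Col6a1 and Col6a2 were 4.45-fold and 4.30-fold higher (edgeR adjusted p = 0.015 and 0.017), and Loxl2, which cross-links collagen, 5.09-fold (edgeR adjusted p = 0.023). Col1a1 stood at 551, 648, 338, 384 and 114 CPM against 224, 138, 108, 67.7 and 85.8 CPM, with a log2 difference of 1.65 ± 0.42 that did not pass (edgeR adjusted p = 0.058). Tumour 06, at 114 CPM, lay below the vessel-poor tumours 08 and 10 for Col1a1. Leaving out tumour 11 or 13 left no gene of this collagen list called.

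Basement membrane genes were called higher in 6 of 14 cases (2.47% of all tested genes) and lower in none, with a median log2 fold change of 1.39. Sparc, a collagen-binding matrix protein, stood at 459.6, 558, 262, 255 and 161 CPM against 115, 87.8, 79.7, 68.3 and 66.7 CPM, 3.89-fold higher (edgeR adjusted p = 0.01). Col4a1, a chain of type IV collagen, stood at 585, 758, 486, 695 and 354 CPM against 214, 233, 116, 92.3 and 139 CPM, 3.51-fold higher (edgeR adjusted p = 0.011). The groups did not overlap for either gene. Lama4, the laminin chain typical of endothelial basement membranes, stood at 22.9, 23.2, 13.4, 21.3 and 7.38 CPM against 5.75, 1.84, 2.06, 1.53 and 1.92 CPM, 6.53-fold higher. Like the endothelial genes it is given with no test, although it is among the 6. Nid1, which links laminin to type IV collagen, was 3.52-fold higher (edgeR adjusted p = 0.01). The calls of Sparc, Col4a1 and Nid1 held whichever tumour was left out. The list's mean of log2(CPM + 1) overlapped slightly, with tumour 06 at 5.44 below tumour 08 at 5.48.

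**Figure D4:**
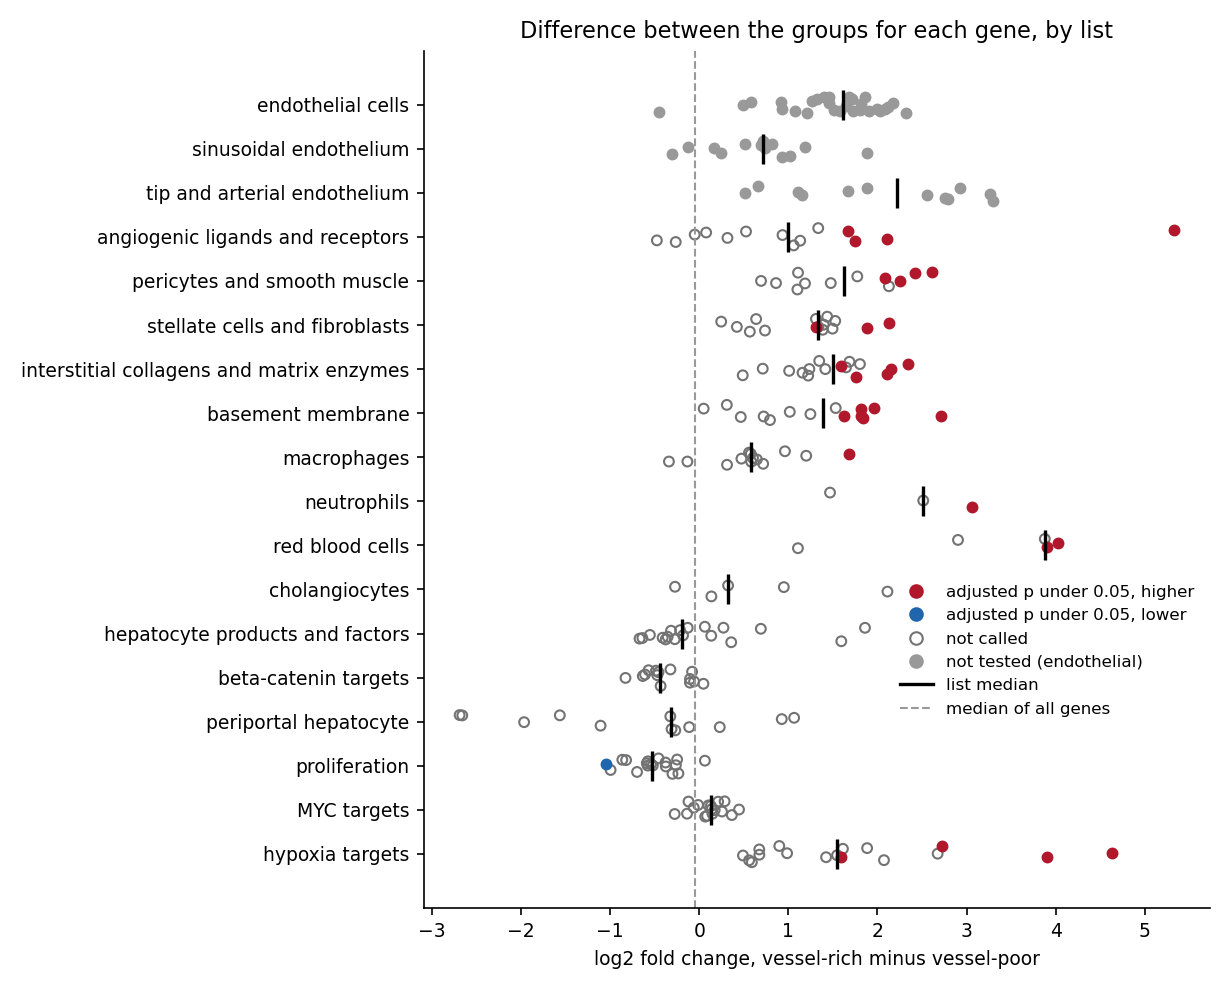
Log2 fold change (vessel-rich minus vessel-poor) of each tested gene by list, for every list except lymphocytes, with the list median as a black bar and the median of all genes as a dashed line. Vascular, mural and matrix medians lay between 0.71 and 2.22, those of hepatocyte, β-catenin, periportal and proliferation lists below 0.

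Macrophage genes had a median log2 fold change of 0.58, and 1 of 13 was called higher (2.47% of all tested genes). Cd68, a lysosomal protein of phagocytes, stood at 24.9, 49.8, 48.9, 66.8 and 46.5 CPM against 11.3, 11.9, 21.3, 13.6 and 14.3 CPM, 3.20-fold higher with no overlap (edgeR adjusted p = 0.01). Markers of resident Kupffer cells did not pass: Clec4f stood at 15.7, 50.9, 16.2, 0.561 and 56.8 CPM against 21.0, 22.5, 16.4, 25.4 and 22.8 CPM, and Cd5l differed by -0.13 ± 0.66 (edgeR adjusted p = 0.84 and 0.93). Tumour 05 had the most Cd68 and the least Clec4f of all 10. Complement C1qb stood at 77.4, 78.7, 77.6, 37.0 and 82.7 CPM against 29.0, 28.0, 44.6, 42.9 and 65.5 CPM and did not pass (edgeR adjusted p = 0.16). Of 7 neutrophil genes 3 could be tested, and S100a9 was 8.34-fold higher (edgeR adjusted p = 0.042), at 4.36, 7.27, 1.05, 6.24 and 16.0 CPM against 1.34, 0.580, 0.352, 0.261 and 1.74 CPM, with tumour 04 inside the vessel-poor range. The Cd68 call held whichever tumour was left out, and that of S100a9 was lost without any 1 of tumours 05, 06 and 09 to 13. Of 14 lymphocyte genes only Cd79b was high enough to test, and it did not pass (log2 difference 0.56 ± 0.49, edgeR adjusted p = 0.56). The list's summed level was 1.93 to 11.0 CPM in the vessel-rich and 1.69 to 11.9 CPM in the vessel-poor tumours. Cholangiocyte genes had a median log2 fold change of 0.32, and none of 5 passed in edgeR (1 higher and 0 lower unadjusted, none by the DESeq2 Wald test).

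Of 5 red cell genes, which are the 4 haemoglobin genes and Alas2 of haem synthesis, 2 were called higher in the vessel-rich tumours (2.47% of all tested genes). Hbb-bs stood at 3256, 1312, 493, 116 and 144 CPM against 107, 121, 43.9, 28.0 and 45.7 CPM, 15.0-fold higher (edgeR adjusted p = 0.042). Hba-a1 was 16.3-fold higher (edgeR adjusted p = 0.042). Hba-a2 stood at 239.6, 134, 0.420, 0.125 and 0.174 CPM against 9.87, 19.4, 6.33, 4.67 and 7.95 CPM and did not pass (edgeR adjusted p = 0.30), with tumours 04, 05 and 06 below every vessel-poor tumour. Hbb-bs was highest in tumours 07 and 09, which also led the endothelial score, and tumour 05 lay below the vessel-poor tumour 10 for Hbb-bs. Hba-a1 and Hba-a2 are near-identical copies, as are Hbb-bs and Hbb-bt, so the split between them is uncertain. The calls of Hbb-bs and Hba-a1 were both lost without any 1 of tumours 09 to 13, that of Hbb-bs also without tumour 07 or 08, and that of Hba-a1 also without tumour 04. With the red cell mean as a covariate 353 genes were higher and 138 lower, of which 201 and 30 were among those called without it.

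Of 17 genes known to respond to hypoxia 4 were called higher in the vessel-rich tumours, beside 2.47% of all tested genes, and none was lower, every estimate lay above 0, and the median log2 fold change was 1.55. P4ha1, which hydroxylates collagen and whose promoter is printed above, stood at 34.7, 57.6, 40.8, 66.5 and 32.4 CPM against 17.8, 17.5, 12.7, 11.9 and 15.1 CPM, 3.00-fold higher (edgeR adjusted p = 0.0064). Adm, the vasodilator adrenomedullin (chr7:110627657-110629820), stood at 5.82, 13.1, 7.49, 71.2 and 18.5 CPM against 2.11, 0.870, 1.00, 0.457 and 0.186 CPM, 24.8-fold higher (edgeR adjusted p = 0.015). Slc2a1 stood at 18.5, 112, 38.6, 327 and 80.6 CPM against 22.4, 21.8, 11.2, 17.8 and 11.7 CPM, 6.63-fold higher in the fit (edgeR adjusted p = 0.046). Tumour 05 was the highest for all 3, and tumour 07, the highest by vessel score, lay inside the vessel-poor range for Slc2a1. Ndufa4l2, which lowers mitochondrial respiration under hypoxia and is also a pericyte gene, was 15.0-fold higher (edgeR adjusted p = 0.033), at 19.9, 12.6, 85.5, 102 and 19.6 CPM against 8.24, 4.30, 0.784, 0.718 and 2.05 CPM. Car9, the carbonic anhydrase that is a classic hypoxia marker, stood at 0.257, 5.65, 0.490, 4.62 and 0.348 CPM against 0.479, 0.387, 0.243, 0.392 and 0.124 CPM and did not pass (edgeR adjusted p = 0.10). The P4ha1 call held whichever tumour was left out, that of Adm was lost without tumour 12 or 13, that of Ndufa4l2 without any 1 of tumours 04, 05 and 10 to 13, and that of Slc2a1 without any 1 of tumours 05, 06 and 08 to 13.

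Between tumours of 1 tag the hypoxia genes did not behave alike. In the pair 07 and 08 the vessel-rich tumour was higher for 9 of 17 genes, with a median log2 ratio of 0.02, whereas in the pair 09 and 10 it was higher for 16 of 17 with a median of 1.20 (CPM + 1, no test with 1 tumour a side). The list mean ran from 4.43 in tumour 07 to 6.46 in tumour 05 among the vessel-rich tumours and from 3.65 to 4.28 among the vessel-poor ones. The order of the vessel-rich tumours by hypoxia genes (05, 09, 04, 06 and 07) was thus not their order by vessel genes.

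Glycolysis and immediate early genes were looked up after their values had been seen, and the genes named were picked from those values, so no test is drawn from them. Of 21 measured glycolysis genes 15 had estimates above 0 and 6 below, with a median log2 fold change of 0.45, and 5 were among the genes edgeR called higher (2.47% of all tested genes). Eno1, Pgam1 and Pfkm, 3 enzymes of the pathway, differed by 0.02, -0.06 and -0.10 on the log2 scale. Pkm, the pyruvate kinase of fetal and tumour cells, stood at 102, 271, 169, 652 and 252 CPM against 67.9, 83.7, 36.5, 21.3 and 40.0 CPM. Slc16a3, a lactate exporter, stood at 5.48, 28.4, 11.4, 48.2 and 21.8 CPM against 5.70, 3.91, 1.35, 1.63 and 1.12 CPM. Pfkp and Hk1, the platelet form of phosphofructokinase and the hexokinase of most non-hepatic cells, were 8.63-fold and 5.14-fold higher in the edgeR fit, while the hepatocyte isozyme Pklr differed by -0.62 on the log2 scale. Among immediate early genes, which are induced within minutes by growth factors or by stress, all 20 measured had estimates above 0 (median log2 fold change 2.28) and 11 were among the genes edgeR called higher (2.47% of all tested genes). Fos (chr12:85473890-85477274) stood at 103, 72.9, 6.72, 90.3 and 182 CPM against 11.8, 1.50, 2.73, 1.21 and 3.60 CPM. Fosb, also of the AP-1 family, differed 11.2-fold in the edgeR fit. Egr1 stood at 107, 119, 61.8, 273 and 265 CPM against 71.9, 29.1, 25.6, 20.2 and 28.2 CPM. Atf3, a stress-induced member of the same class, stood at 115, 169.5, 57.4, 614 and 316 CPM against 27.5, 63.7, 40.3, 21.9 and 33.0 CPM. Egr1 and Atf3 were highest in tumours 05 and 06, of 1 tag, Fos in tumours 06 and 07, and tumour 04 lay within the vessel-poor range for Fos and Egr1. The part played by the handling of the tissue was not tested.

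The hepatocyte programme itself showed no call in either direction. Of 18 hepatocyte products and factors edgeR called none, with 3 higher and 5 lower at an unadjusted p under 0.05 and 0 and 1 by the DESeq2 Wald test, 11 estimates lay below 0, and the median log2 fold change was -0.20. Alb stood at 16100.0, 24400.0, 16170.0, 12730.0 and 16340.0 CPM against 20540.0, 15460.0, 16680.0, 22800.0 and 14840.0 CPM, and the fitted fold was 0.913 with an approximate 95% interval of 0.701 to 1.19. Hnf4a, the master factor of hepatocytes, stood at 645, 684, 726, 602 and 657 CPM against 804, 780.0, 884, 796 and 882 CPM, which did not overlap but did not pass (log2 difference -0.36 ± 0.12, edgeR adjusted p = 0.13). The fibrinogen chain Fga stood at 1492, 2658, 2120.0, 6902 and 16440.0 CPM against 2131, 1214, 1470.0, 2099 and 1263 CPM, high in tumours 05 and 06 alone. β-catenin targets had a median of -0.45, with 13 of 14 estimates below 0 and none called by edgeR (0 higher and 4 lower unadjusted, 0 and 2 by the DESeq2 Wald test). Glul, glutamine synthetase, stood at 8455, 6024, 14820.0, 10900.0 and 11270.0 CPM against 14220.0, 9240.0, 9069, 12590.0 and 8604 CPM, with a fold of 0.945 (approximate 95% interval 0.651 to 1.37). Oat and Cyp2e1, further pericentral genes, did not overlap between the groups but missed the threshold (log2 differences -0.63 ± 0.19 and -0.61 ± 0.19, edgeR adjusted p = 0.091 and 0.11). Without tumour 07 a total of 3 β-catenin targets were called lower, in a run that called 151 of 13643 genes lower. Within the pair 07 and 08 the vessel-rich tumour was higher for 10 of 14 of them (median log2 ratio 0.31), and within the pair 09 and 10 for 1 of 14 (median -0.57), so the pairs went opposite ways.

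Periportal genes were uneven among the tumours of both groups. The list mean of log2(CPM + 1) ran from 2.65 to 4.84 in the vessel-rich tumours and from 3.06 to 5.44 in the vessel-poor ones. Cyp2f2 stood at 3.94, 3.81, 2.38, 0.125 and 4.30 CPM against 47.8, 5.51, 2.65, 31.2 and 0.869 CPM, and Sds, serine dehydratase, at 0.342, 0.282, 0.210, 0 and 1.57 CPM against 7.18, 0.290, 0.162, 7.48 and 0.559 CPM. Both were high in tumours 08 and 12 alone, as were Gls2 and Hal, whose values in those tumours were 13.6 and 19.3 CPM, and 13.3 and 10.6 CPM. Other members differed from these: Cps1, Cdh1 and Aldh1b1 were highest in the vessel-rich tumour 09, at 223, 66.7 and 93.8 CPM. None of 12 periportal genes passed in edgeR (0 higher and 3 lower unadjusted, none by the DESeq2 Wald test), with 3 estimates above 0, 9 below and a median log2 fold change of -0.32.

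Proliferation genes had a median log2 fold change of -0.53, with 17 of 18 estimates below 0 and 1 called lower by edgeR, beside 0.665% of all tested genes (7 lower unadjusted, 3 lower by the DESeq2 Wald test). Mki67, which marks cycling cells (chr7:135689784-135716450), stood at 27.3, 49.2, 28.0, 33.1 and 48.0 CPM against 99.6, 64.2, 82.9, 69.9 and 55.9 CPM, 2.07-fold lower in the vessel-rich tumours with no overlap (log2 difference -1.05 ± 0.21, edgeR adjusted p = 0.023). Cenpf, of the kinetochore, differed by -0.86 ± 0.24 and did not pass (edgeR adjusted p = 0.078), and the checkpoint kinase Bub1, at 2.31, 5.30, 2.45, 2.25 and 3.72 CPM against 8.00, 4.45, 8.87, 5.68 and 3.79 CPM, did not pass either (edgeR adjusted p = 0.097). Top2a differed by -0.46 ± 0.25 (edgeR adjusted p = 0.32). The Mki67 call was lost without tumour 12 or 13, without the RMH4 family or the Rpph1-high tumours, for the 3 highest against the 3 lowest tumours, with the score as a continuous covariate, and with family, tag, red cell, Rpph1 or library total terms. The medians within a tag again went opposite ways: tumour 07 was lower than tumour 08 for all 18 genes (median log2 ratio -1.05), and tumour 09 was higher than tumour 10 for 15 of 18 (median 0.37). Mki67, Plk1 and Pcna were lower in the vessel-rich tumour of both pairs. MYC targets had a median of 0.13 and none of 17 passed in edgeR (1 higher and 0 lower unadjusted, none by the DESeq2 Wald test). Npm1, a nucleolar chaperone, stood at 102, 77.9, 76.0, 83.0 and 76.7 CPM against 59.0, 55.3, 69.7, 72.2 and 59.9 CPM, which did not overlap but did not pass (edgeR adjusted p = 0.19).

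The following are among the non-overlapping calls outside the lists with the highest fold changes. Apold1, an early response gene of endothelium, stood at 44.6, 36.9, 5.95, 14.8 and 18.6 CPM against 2.83, 0.676, 0.460, 0.327 and 0.683 CPM, 23.9-fold higher, and as an endothelial gene is given with no test. Akap12, a scaffold for protein kinase A, stood at 37.0, 130.1, 17.5, 32.4 and 24.1 CPM against 5.46, 3.04, 2.30, 1.27 and 1.05 CPM, 17.0-fold higher (edgeR adjusted p = 0.01). Apold1 was highest in tumour 07 and Akap12 in tumour 09. Stc1, the hormone stanniocalcin, and Spry4, a feedback inhibitor of growth factor signalling, were 12.3-fold and 11.2-fold higher (edgeR adjusted p = 0.042 and 0.011). Igfbp3, which binds insulin-like growth factors, stood at 118, 160.2, 262, 301 and 65.5 CPM against 28.1, 25.9, 10.5, 8.19 and 9.43 CPM, 10.8-fold higher (edgeR adjusted p = 0.01). Cd14, the co-receptor for lipopolysaccharide, and Inhbb, a subunit of activin B, were 9.74-fold and 9.71-fold higher (edgeR adjusted p = 0.012 and 0.024). The calls of Akap12, Spry4, Igfbp3 and Cd14 held whichever tumour was left out. The call of Inhbb was lost without any 1 of tumours 09 to 13, and that of Stc1 without any 1 of tumours 04, 05, 08, 09 and 11 to 13.

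**Figure D5:**
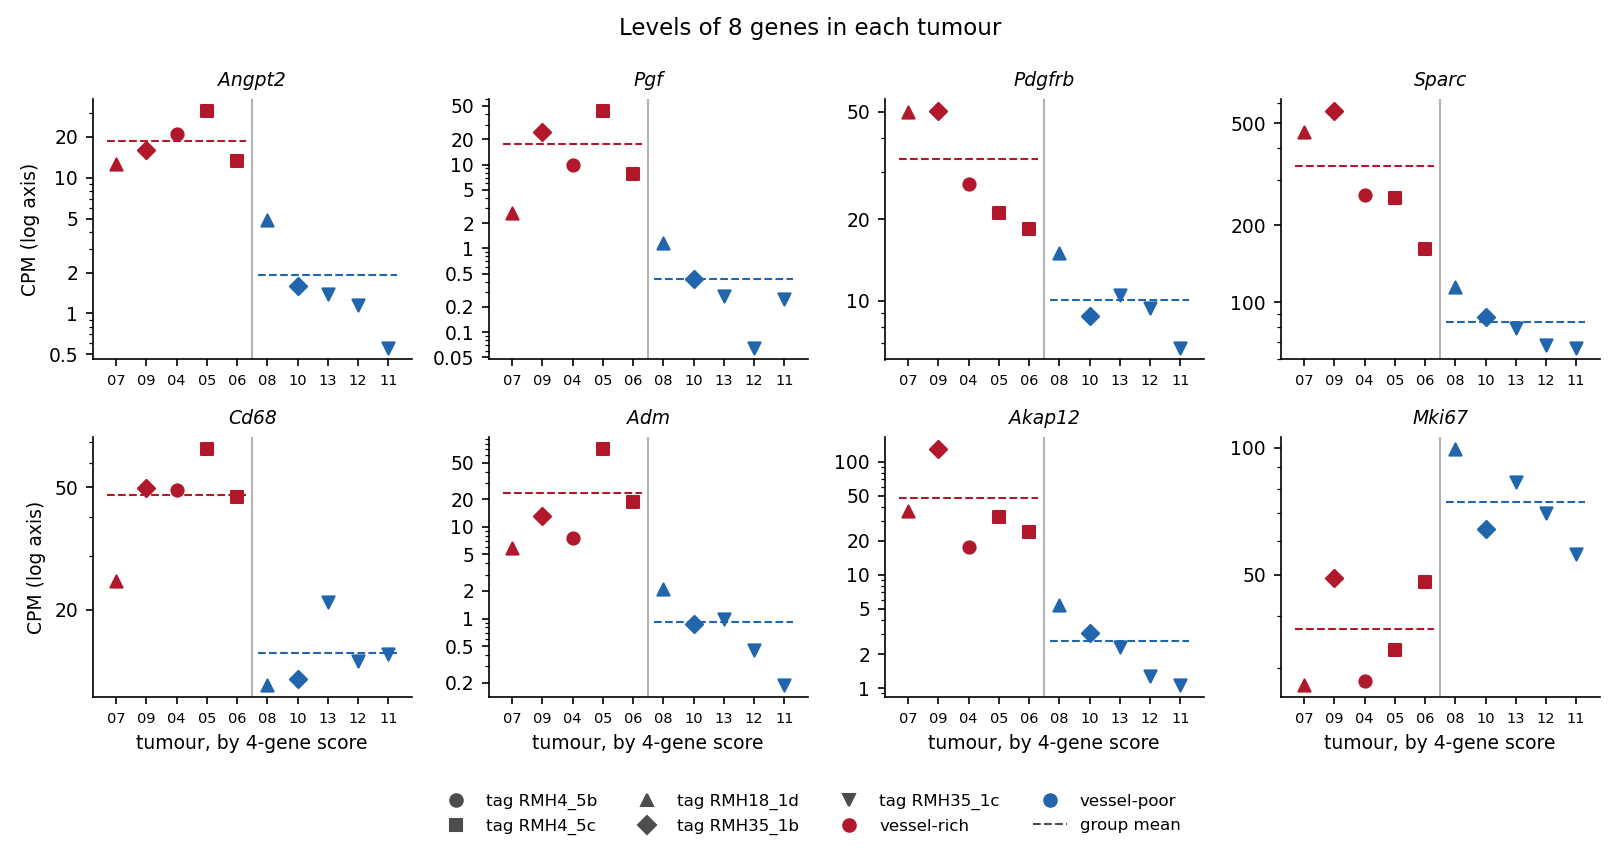
Counts per 1000000 counts (CPM, log axis) of 8 genes in the 10 tumours, ordered by the 4-gene score, with a marker shape for each column tag and dashed lines at the group means. None of the 8 overlapped between the groups, Mki67 was lower in the vessel-rich tumours (27.3 to 49.2 CPM against 55.9 to 99.6 CPM), and tumour 05 was the highest for Angpt2, Pgf, Cd68 and Adm.

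Genes lower in the vessel-rich tumours differed by less. Acsm5, a mitochondrial enzyme that activates medium-chain fatty acids, stood at 75.8, 84.5, 78.3, 69.6 and 62.4 CPM against 144, 154, 145, 138 and 126 CPM, 1.96-fold lower (edgeR adjusted p = 0.0041). Tlr12, a Toll-like receptor, stood at 31.4, 33.6, 29.8, 9.80 and 12.0 CPM against 47.5, 99.6, 55.4, 55.5 and 128 CPM, 3.44-fold lower (edgeR adjusted p = 0.033). Acsm5 was nearly even within each group, whereas Tlr12 was least in tumours 05 and 06. Slfn9, Gba2, a glucosylceramidase, Tm7sf2, a sterol reductase, and Sbk1 were 2.96-fold, 2.37-fold, 2.05-fold and 2.04-fold lower (edgeR adjusted p = 0.033, 0.03, 0.039 and 0.013). Vwce, Slc46a3, a lysosomal transporter, and Abhd15 were 2.02-fold, 1.97-fold and 1.92-fold lower (edgeR adjusted p = 0.039, 0.029 and 0.011). The calls of Acsm5, Sbk1 and Abhd15 held whichever tumour was left out, and those of the other 6 genes named here did not. Clock genes were also looked up after their values had been seen. Of 15 measured 6 had estimates above 0 and 9 below, with a median log2 fold change of -0.35, and 1, Per3, was among the genes edgeR called lower (0.665% of all tested genes). Per3 (chr4:150997018-151044707), stood at 2.74, 6.00, 0.840, 4.55 and 1.68 CPM against 2.30, 28.1, 13.0, 29.9 and 23.3 CPM, low in tumour 08 as in the vessel-rich group. Dbp, an output gene of the clock, stood at 3.00, 26.3, 2.10, 6.43 and 2.03 CPM against 2.59, 106, 36.7, 74.0 and 83.8 CPM. The time of day at which the tumours were taken is not given in the sources used here.

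Within tags, most of the called genes kept their direction. Of the 338 genes called higher, 331 were higher in tumour 07 than in tumour 08, 336 in tumour 09 than in tumour 10, and 329 in both, and of the 91 called lower 88, 88 and 85 were lower. These tumours were part of the comparison that made the calls, so the counts describe them and test nothing. By list, pericyte genes were higher in both pairs for 12 of 12 (median log2 ratios 1.21 and 1.49), stellate and fibroblast genes for 14 of 15 (0.79 and 2.24), collagens for 13 of 16 (0.96 and 2.44) and basement membrane genes for 11 of 14 (0.83 and 1.77). Macrophage genes were higher in both for 11 of 13 (1.04 and 1.38). Angiogenic ligands and receptors were higher in both pairs for 7 of 14 (0.52 and 0.34). Most pericyte, stellate and matrix genes thus went the same way in both pairs, whereas the medians of proliferation and β-catenin genes went opposite ways, and the median ratio of hypoxia genes was near 0 in the pair 07 and 08.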

How the data were processed

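RNA was measured in mouse liver tumours. Per the labels, RNA was isolated with Trizol and made into libraries with a TruSeq stranded mRNA kit, which were sequenced paired-end according to the study's methods. The authors deposited 1 table of unnormalised read counts per gene (39179 identifiers and 5 summary lines). The submitters' processing notes name TopHat2, HTSeq and GRCm38, without versions or counting options, so reads of overlapping and antisense genes may not be told apart. The table has 19 columns, of which 10 matched a tumour by number; this assumes that the numbers in titles and columns are the same, and the other 9 columns were not used here. Total counts ranged from 11687034 to 36964427, and 3 counts equal 0.0812 to 0.257 CPM. These floors cover counting error only, whereas intervals of fold changes rest on the SE from edgeR and include the spread between tumours.

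Symbols came by stable identifier from GENCODE M39 (34199 identifiers, 87.3%), positions and promoters from RefSeq tables on GRCm38.p6. Genes with an average log2 CPM of at least 0 over the 10 tumours were tested with edgeR 4.0.16 (R 4.3.3, limma 3.58.1), with TMM scaling (factors 0.951 to 1.16), the quasi-likelihood test, 2 groups of 5 and no covariate, and were called at a Benjamini-Hochberg adjusted p under 0.05. The common biological coefficient of variation was 0.348. Alternatives used DESeq2 1.42.0 and limma. Of these fits only the main edgeR test was tried on simulated counts with known changes. Values per tumour are CPM on column sums, and fold changes and SE are from edgeR.

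The ranking rule, the members and the 19 gene lists were chosen with earlier results of these data known. Named were the 4 ranking genes, at most 4 genes of each list with the lowest p and others whose role was needed, and the 10 highest and 10 lowest called genes outside the lists with non-overlapping groups and a mean of at least 5 CPM. Some genes that this rule takes are not reported here. Rhbg was not matched. Nothing says that the tumours came from separate mice, so p-values measure only the spread between these samples. Tumour and control livers were not compared, since the columns of the controls were not matched. Plots used Python 3.11.15, pandas 2.3.3, numpy 2.4.6 and matplotlib 3.10.9.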

Additional observations from a re-analysis of the deposited data

Results flagged for a closer look

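Within each group of 5 tumours 116 measures, of genes taken by the naming rule and of lists, were checked for a tumour far from the others, which means a gap to its neighbour of more than 0.71 of the group's range on the log2(CPM + 1) scale (Dixon's test). Of 232 checks 14 were past this value, and chance alone gives about 1 in 20, or 11.6. In the vessel-poor group tumour 08, the nearest to the boundary, stood above the rest for the mean of the sinusoidal list (0.814 of the range, 3.08 against 2.52), for Bmp2 (0.846, 4.07 against 1.54 CPM), Cxcr4 (0.852, 2.39 against 0.931 CPM), Cox4i2 (0.777, 0.958 against 0.248 CPM), Lama4 (0.809, 5.75 against 2.06 CPM), Apold1 (0.775, 2.83 against 0.683 CPM) and Spry4 (0.759, 1.87 against 0.751 CPM). Tumour 10 stood above the other vessel-poor tumours for Oat (0.896, 10300.0, 14930.0, 9978, 10400.0 and 10300.0 CPM in the order of the score).

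In the vessel-rich group tumour 07 stood highest for the sinusoidal genes Stab2 (0.732, 68.3 against 35.2 CPM) and Bmp2 (0.764, 4.79 against 3.74 CPM). Tumour 09 stood highest for Pdgfra, a receptor of stellate cells and fibroblasts (0.800, 18.9 against 6.04 CPM). Tumour 05 stood lowest for the complement genes C1qb (0.918, 37.0 against 77.4 CPM) and C1qc (0.761, 30.3 against 62.3 CPM) and for the periportal gene Cyp2f2 (0.710, 0.125 against 2.38 CPM).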

How the results depend on the processing

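The counts of 338 genes higher and 91 lower depended on the model. Higher calls numbered 834 with the DESeq2 Wald test, 164 without the tumours over 10 CPM of Rpph1, 61 with Rpph1 as a covariate, 24 with the tag as a fixed term and 0 with the library total as a covariate. Lower calls numbered 315 with the DESeq2 Wald test, 138 with the red cell covariate, 55 with column sums, 54 for the 3 highest against the 3 lowest tumours, 52 with thinned libraries, 50 with the tag as a random block, 27 at a log2 difference over 1, 21 without the RMH4 family, 14 with a family term, 2 without the Rpph1-high tumours and 0 with Rpph1, tag or library total terms. The 6 alternatives on Rpph1, tag, library total, RMH4 and thinning were chosen after seeing the data. Without 1 tumour in turn, 98 to 377 genes were higher and 9 to 151 lower. Of 57 genes taken by the naming rule that passed, 27 passed in all of these runs. Both counts include endothelial genes, such as Robo4, Vwf, Angpt2 and Esm1, which are not independent of the ranking and are described with no test. Estimates that turned sign were Hba-a2 (-1.50 by limma-voom, -1.20 with the random block, -4.97 with the red cell covariate), Spp1 (-0.044 with the random block, -0.17 with the red cell covariate, -0.39 without tumour 09 in a range up to 0.73 for the other tumours left out, -0.30 with the tag term, -0.37 with the library total), Cd79b (-0.44 with the red cell covariate, -0.12 with the library total), Ldha (-0.11 with the tag term) and Ncl (-0.00 for 3 against 3), none of which had passed. The cause was not tested. No paired analysis was possible on replicate numbers, because each number belongs to 1 tumour. Matching by column tag gave the counts above as a fixed term, and as a random block 231 higher and 50 lower. The filter on average CPM left out the lowest genes, such as most lymphocyte markers, which were not tested.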
